A study of Homo sapiens with 2 samples.

Results

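The barcodes described here are the high-mitochondrial ones: cell barcodes with at least 1000 detected genes, selected on a share of 20% or more of their UMIs (unique molecular identifiers, each standing for 1 captured RNA molecule) from mitochondrially encoded genes. The sense-control library SO-L1 held 472 of them among 7025 barcodes with at least 1000 genes, and the antisense library ASO-L1 held 530 among 9614. Out of all deposited barcodes, 24729 in both libraries together, they were 1002. Each was compared within its own library with barcodes at 2% to below 20% mitochondrial UMIs, called the reference barcodes here, 4696 in SO-L1 and 6553 in ASO-L1. Because the mitochondrial share chose the barcodes, that share is a description and not a finding. All other genes were compared as shares of a total that leaves mitochondrial genes out.

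Both libraries came from H9, an established human embryonic stem cell line, cultured in RSeT, a medium for naive-like pluripotent cells, and from transfection on with 10 nM DZNep, a methylation inhibitor known to deplete EZH2, and 5 nM TSA, a histone deacetylase inhibitor. Every cell had been given 25 nM of a FAM-labelled oligonucleotide, which was antisense to LINE1 RNA in ASO-L1 and the sense control in SO-L1. Trans-ISRIB at 0.7 µM, emricasan (a caspase inhibitor) at 5 µM and the ROCK inhibitor Y-27632 at 10 µM were removed after 24 hours. At 48 hours 100000 FAM-positive cells were sorted, and a yield of 12000 cells per library was aimed for with 10x Genomics 3' v3 chemistry, so only cells that took up an oligonucleotide are represented. The sorting buffer held DAPI, a dye that enters cells with broken membranes, and the labels do not say whether cells were gated on it. Each treatment has 1 library, so no difference has a replicate check and no p-value is given.

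Mitochondria transcribe their own small genome inside the organelle, where its messenger RNAs stay behind a double membrane. Messenger RNAs of cytosolic proteins are translated on free ribosomes in the cytosol. Those of secreted and membrane proteins are mostly translated on ribosomes bound to the endoplasmic reticulum, whose membrane is continuous with the nuclear envelope, and unspliced transcripts and many long non-coding RNAs remain in the nucleus. A high mitochondrial share is widely used in single-cell work as a sign of a damaged cell, and such barcodes are usually filtered out before analysis. The comparison asks what RNA is in them.

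The libraries share 6105 barcode sequences, which bears on the reference barcodes far more than on the high-mitochondrial ones. Of the high-mitochondrial barcodes, 3 in SO-L1 and 6 in ASO-L1 carried a sequence present in the other library, and 0 were high-mitochondrial in both. Of the reference barcodes, 885 of 4696 (18.9%) in SO-L1 and 3820 of 6553 (58.3%) in ASO-L1 carried such a sequence. Without all shared sequences the counts of genes called higher were 6404 (SO-L1) and 6669 (ASO-L1), close to the main counts given further on, and those called lower 2365 and 2259. The 13 mitochondrially encoded messenger RNAs are the mitochondrial rows of the tables.

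High-mitochondrial barcodes made up 6.72% of SO-L1 barcodes with at least 1000 genes (95% exact Clopper-Pearson interval 6.14% to 7.33%) and 5.51% of those in ASO-L1 (5.07% to 5.99%). These intervals, like those of all ratios below, cover counting error only. The share ranged from 20.1% to 86.8% in SO-L1, with a median of 37.4%, and from 20.02% to 87.2% in ASO-L1, with a median of 37.7%. At 70% or more there were 58 barcodes in SO-L1 and 75 in ASO-L1. Just outside the limit, the 37 SO-L1 barcodes at 18% to below 20% had a median of 26580 non-mitochondrial UMIs, and just inside it, the 29 at 20% to below 22% had 19920. In ASO-L1 the 38 barcodes just outside had a median of 17320 and the 25 just inside 8213.

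The high-mitochondrial barcodes held about as many mitochondrial UMIs as the reference barcodes and far fewer of everything else. In SO-L1 the median was 4568 mitochondrial UMIs per barcode against 4085 in the reference, a ratio of 1.12. In ASO-L1 it was 4575 against 4120, a ratio of 1.11. The mitochondrial level itself was therefore close to that of the reference, and 281 of 472 barcodes in SO-L1 and 311 of 530 in ASO-L1 lay above the reference median. Non-mitochondrial UMIs had a median of 6136 per barcode against 40880 in SO-L1, 6.66-fold lower, and of 5804 against 51940 in ASO-L1, 8.95-fold lower. Detected genes had medians of 3296 against 7975 in SO-L1 and 3190 against 8396 in ASO-L1. As the share of mitochondrial UMIs is the ratio of these quantities and chose the barcodes, the low non-mitochondrial count is partly built into the choice, and the near-equal mitochondrial count is not required by it.

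**Figure D1:**
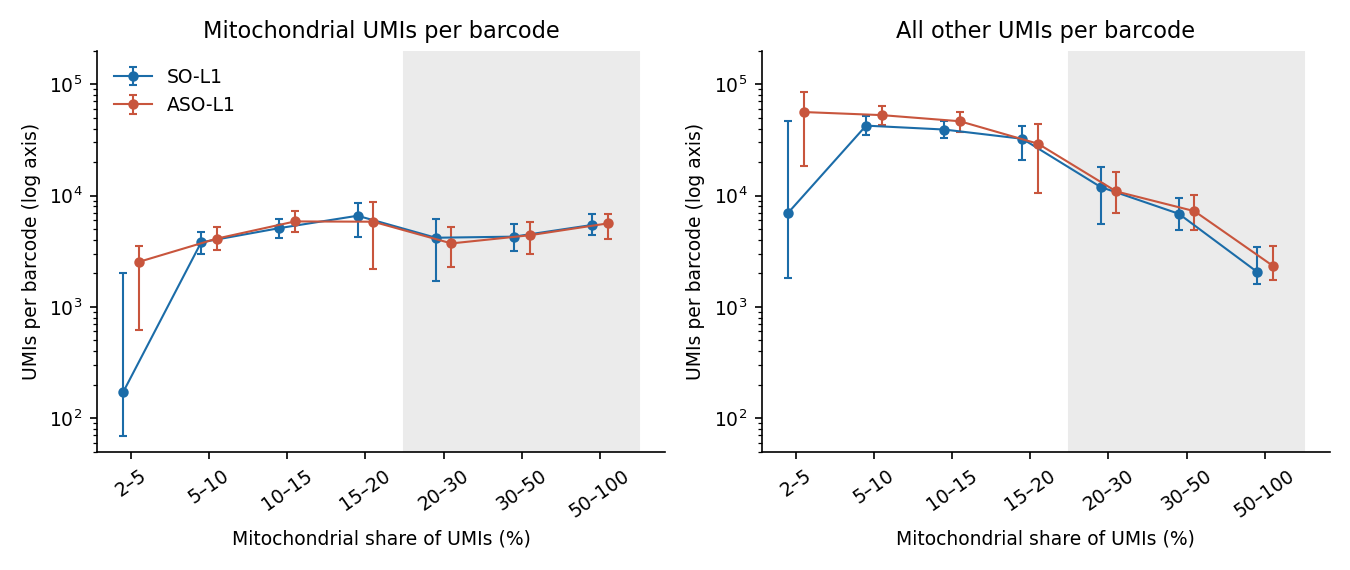
Mitochondrial UMIs (left) and all other UMIs (right) per barcode, on log axes, by the barcode's mitochondrial share in %; points are medians, bars the quartiles, blue SO-L1 and red ASO-L1, and the grey area marks the high-mitochondrial barcodes. From 5% upward the median mitochondrial count stays between 3712 and 6580, while the other UMIs drop from 42470 (SO-L1) and 52790 (ASO-L1) at 5% to 10% to 2062 and 2340 at 50% or more.

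The same held along the range of mitochondrial share, as the plot of UMIs by mitochondrial share shows. In SO-L1 the median non-mitochondrial count was 11930 UMIs at 20% to below 30%, 6852 at 30% to below 50% and 2062 at 50% or more. In ASO-L1 the same bands had medians of 10880, 7234 and 2340. The mitochondrial medians in these bands were 4175, 4270 and 5438 in SO-L1, and 3712, 4394 and 5619 in ASO-L1. No high-mitochondrial barcode (0 in either library) had more UMIs in all than the 99th percentile of the reference.

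Among the mitochondrial messenger RNAs themselves the proportions shifted. MT-ATP6, a subunit of the ATP synthase, took 16.3% of mitochondrial UMIs in the SO-L1 high-mitochondrial barcodes against 13.4% in the reference, and 14.1% against 10.5% in ASO-L1. MT-ND6, the complex I subunit encoded on the opposite strand from the others, took 0.429% against 0.257% in SO-L1 and 0.488% against 0.2495% in ASO-L1, the largest ratios of the 13 in both libraries (1.67 and 1.96). MT-ND2, another complex I subunit, had the lowest ratio in both libraries: 1.31% against 1.70% in SO-L1 and 1.93% against 2.53% in ASO-L1. MT-ND1 and MT-ND4, also of complex I, had ratios of 0.821 and 0.819 in SO-L1 and of 0.811 and 0.804 in ASO-L1. The cytochrome c oxidase subunits MT-CO1, MT-CO2 and MT-CO3 lay between 0.944 and 1.05.

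Nuclear copies of the mitochondrial 16S ribosomal RNA gene were among the highest of all genes. MTRNR2L12 and MTRNR2L8 match the mitochondrial gene MT-RNR2 over 1050 bases at 95.1% and over 1303 bases at 93.1% identity, and each carries a short reading frame for a humanin-like peptide. The coding stretches are shown because they make plain how little separates the copies from the mitochondrial sequence: capitals mark the bases that differ from MT-RNR2 (for MT-RNR2, from MTRNR2L12), and the stretches span 72 bases on GRCh38, at chr3:96617202-96617273 and chr11:10508155-10508226, both on the minus strand. MTRNR2L12 differs at 2 of the 72 bases and MTRNR2L8 at 1.
MTRNR2L12: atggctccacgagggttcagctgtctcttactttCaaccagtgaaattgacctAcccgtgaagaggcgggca
MT-RNR2: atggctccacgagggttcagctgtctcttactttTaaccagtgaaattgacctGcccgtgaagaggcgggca
MTRNR2L8: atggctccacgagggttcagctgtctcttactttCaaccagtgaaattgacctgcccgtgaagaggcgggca

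MTRNR2L12 gave 355 CPM (counts scaled to 1000000 non-mitochondrial UMIs) in the SO-L1 high-mitochondrial barcodes against 47.5 in the reference, a ratio of 7.47 (7.04 to 7.92). In ASO-L1 it gave 366 against 34.5, a ratio of 10.6 (10.0 to 11.2). MTRNR2L8 gave 115 against 17.2 CPM in SO-L1, a ratio of 6.65 (5.99 to 7.36), and 79.7 against 7.56 in ASO-L1, a ratio of 10.5 (9.34 to 11.9). Set against mitochondrial UMIs the distance was small: per 1000 mitochondrial UMIs, MTRNR2L12 had 0.583 UMIs in the high-mitochondrial barcodes and 0.473 in the reference in SO-L1, and 0.561 and 0.428 in ASO-L1. MT-RNR2 itself is not among the tables' mitochondrial rows, reads of near-identical copies can be assigned to either, and so the levels of MTRNR2L12 and MTRNR2L8 are uncertain as levels of nuclear genes. AC068616.2, a clone-named gene singled out after its value was seen, stood beside them at ratios of 8.06 and 8.87.

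The remaining UMIs had a different make-up from those of the reference barcodes, and this was alike in both libraries. A gene was measured when equal levels would give at least 10 UMIs in the smaller class, and called when its CPM differed by at least 1.5-fold with a 95% interval excluding 1. These shares describe barcodes chosen on the same libraries and nothing is read from them. In SO-L1, 6289 of 13580 measured genes (46.3%) were called higher and 2327 (17.1%) lower. In ASO-L1, 6375 of 13631 (46.8%) were called higher and 2244 (16.5%) lower. Of the 13130 genes measured in both, 5451 (41.5%) were higher in both and 1847 (14.1%) lower in both. The shared higher genes were 90.6% of those called in SO-L1 and 87.6% of those in ASO-L1, and the shared lower ones 80.1% and 83.9%. Across those 13130 genes, which are not independent replicates, the log2 ratios of the libraries correlated at Pearson's r = 0.93, and 92.6% had the same sign.

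Whether a gene counts as higher depends on what it is counted against. With mitochondrial genes kept in the total, every log2 ratio shifts by -0.55 in SO-L1 and -0.61 in ASO-L1, and the share of higher among called genes moves from 73.0% to 35.4% and from 74.0% to 36.9%. Leaving the cytoplasmic ribosomal protein genes out of the total shifts the ratios by -0.21 in both libraries, with 62.2% and 64.1% of calls higher. Leaving out genes spanning 100 kb or more shifts them by 0.39 and 0.38, with 85.9% and 86.5% higher. The order of the genes does not change with these totals, and list medians below are read beside the median of all measured genes, 0.51 (SO-L1) and 0.53 (ASO-L1) on the log2 scale.

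In UMIs per barcode nearly everything was lower. The mean non-mitochondrial count was 7782 against 41440 UMIs per barcode in SO-L1 and 7415 against 54310 in ASO-L1. The median measured gene had 0.268 times the reference's UMIs per barcode in SO-L1 and 0.197 times in ASO-L1. Only 30 of 13578 genes in SO-L1 and 5 of 13629 in ASO-L1 had a higher mean per barcode than the reference, among them MTRNR2L12 and MTRNR2L8 in both. Cytoplasmic ribosomal protein messenger RNAs were at 0.0753 and 0.0595 times the reference per barcode, and genes spanning 100 kb or more at 0.376 and 0.301 times. "Higher" below therefore means a larger share of what was left, not more RNA per barcode.

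Messenger RNAs of cytoplasmic ribosomal proteins made up a far smaller share than in the reference. All 79 cytoplasmic ribosomal protein genes were called lower in SO-L1 and 78 of 79 in ASO-L1, with median log2 ratios of -1.31 (95% order-statistic interval -1.36 to -1.27) and -1.21 (-1.26 to -1.16). These intervals treat the genes of a list as independent. Together they took 8.33% of non-mitochondrial UMIs against 20.8% in SO-L1 and 9.53% against 21.9% in ASO-L1. RPS2 of the small subunit stood at 2883 against 7614 CPM in SO-L1 and 2848 against 6503 in ASO-L1. Ribosomal protein genes have many processed copies in the genome, so single values carry some uncertainty. EEF1A1, which delivers aminoacyl-tRNA to the ribosome, was at 1263 against 3319 CPM and at 1983 against 5703. Among 40 translation factors, 25 were lower and 1 higher in SO-L1, and 23 and 1 in ASO-L1, with medians of -0.85 and -0.68. For comparison, 17.1% (SO-L1) and 16.5% (ASO-L1) of all measured genes were lower, and 46.3% and 46.8% higher.

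Cytoskeleton, chaperonin and proteasome genes were mostly lower as well, and glycolysis genes went both ways, with more lower than higher. Of 38 actin and tubulin cytoskeleton genes, 31 were lower and 0 higher in SO-L1, and 29 lower and 2 higher in ASO-L1. Cofilin (CFL1), which severs actin filaments, was at 318 against 999 CPM in SO-L1 and 286 against 904 in ASO-L1, and the filament monomer gene ACTB at 1178 against 2585 and 1328 against 2975. The intermediate filament gene VIM had ratios of 0.289 (0.247 to 0.336) and 0.276 (0.256 to 0.298). Of 39 chaperonin and proteasome subunits, which fold and degrade cytosolic proteins, 33 were lower and 0 higher in each library, with medians of -1.03 and -1.08. Among 21 glycolysis genes 11 were lower in each library, and 5 were higher in SO-L1 and 4 in ASO-L1. Of all measured genes, 17.1% (SO-L1) and 16.5% (ASO-L1) were lower, and 46.3% and 46.8% higher. GAPDH and TPI1, enzymes of its middle steps, had ratios of 0.361 and 0.347 in SO-L1 and of 0.361 and 0.329 in ASO-L1.

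Nuclear genes for respiratory chain subunits and mitochondrial ribosomal proteins mostly took a smaller share than in the reference. The share of mitochondrial messenger RNAs chose the barcodes, so whether these genes go with them was not tested. Of 77 respiratory chain and ATP synthase subunits encoded in the nucleus, 57 were lower and 0 higher in SO-L1, and 60 lower and 0 higher in ASO-L1, with medians of -1.04 (-1.11 to -0.88) and -1.08 (-1.19 to -0.84). UQCRH of complex III was at 652 against 1576 CPM in SO-L1 and 691 against 1890 in ASO-L1, and the ATP synthase subunit ATP5MC3 at 181 against 502 and 241 against 746. Mitochondrial ribosomal proteins were alike, with 61 of 76 lower in SO-L1 and 60 of 76 in ASO-L1 and medians of -1.12 and -1.08. The import and chaperone list had medians of -0.47 in both, with 15 of 33 lower in each, HSPD1 (the matrix chaperonin) among them at ratios of 0.400 and 0.378. The 39 genes that maintain and transcribe mitochondrial DNA divided, 13 higher and 8 lower in SO-L1 and 12 and 5 in ASO-L1. Of all measured genes, 46.3% (SO-L1) and 46.8% (ASO-L1) were higher, and 17.1% and 16.5% lower. TFAM, which packages mitochondrial DNA, was lower in SO-L1 at 0.623 (0.533 to 0.724) and stood at 0.747 (0.669 to 0.831), not called, in ASO-L1. PPARGC1A, a co-activator of mitochondrial biogenesis, was higher at 2.48 and 2.42.

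Many histone and splicing factor genes were lower too. HIST1H4C, a replication-dependent histone H4 gene on GRCh38 chromosome 6 (26103876 to 26104310), had 153 CPM against 734 in SO-L1, a ratio of 0.208 (0.191 to 0.226), and 154 against 985 in ASO-L1, a ratio of 0.157 (0.144 to 0.170). The replacement histone gene H3F3A had ratios of 0.308 and 0.303. Of the histone genes measured, 14 of 26 in SO-L1 and 14 of 28 in ASO-L1 were lower and 1 in each higher, with near-identical members making single values uncertain. Among 37 splicing factors 26 were lower and 0 higher in SO-L1, and 24 and 1 in ASO-L1, with HNRNPA1 at ratios of 0.395 and 0.381. The shares over all measured genes were 17.1% (SO-L1) and 16.5% (ASO-L1) lower, and 46.3% and 46.8% higher. The nucleolar proteins NCL and NPM1 had ratios of 0.332 and 0.438 in SO-L1 and of 0.386 and 0.393 in ASO-L1. Their list, nucleolar and RNA polymerase I genes, was more divided. Of 53 measured, 24 were lower and 5 higher in SO-L1, and 20 and 6 in ASO-L1. Its medians were -0.45 (-0.77 to 0.03) and -0.31 (-0.61 to 0.03).

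Secreted and cell surface proteins were the opposite. Of 70 measured in SO-L1, 50 were higher and 2 lower, with a median of 0.87 (0.74 to 0.96), and of 71 in ASO-L1, 47 were higher and 3 lower, with a median of 0.77 (0.66 to 0.98). All measured genes had medians of 0.51 (SO-L1) and 0.53 (ASO-L1), with 46.3% and 46.8% higher and 17.1% and 16.5% lower. APOE, a secreted lipid carrier, had 3353 CPM against 1684 in SO-L1, a ratio of 1.99 (1.96 to 2.03), and 3865 against 2038 in ASO-L1, a ratio of 1.90 (1.87 to 1.93). COL18A1, a basement membrane collagen, had the largest ratios of the list called in both libraries, 2.83 (2.66 to 3.02) and 3.32 (3.10 to 3.56). Laminin LAMC1 stood at 2.51 and 2.29, E-cadherin CDH1 at 2.15 and 2.19, and the transferrin receptor TFRC at 2.42 and 2.58. LEFTY2, a secreted Nodal inhibitor and the most abundant after APOE, was near the reference at 1.12 and 1.13. The only gene of the list lower in both was CRABP1, at 0.322 and 0.312, and CRABP1 is a cytosolic retinoic acid carrier despite its place on the list.

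**Figure D2:**
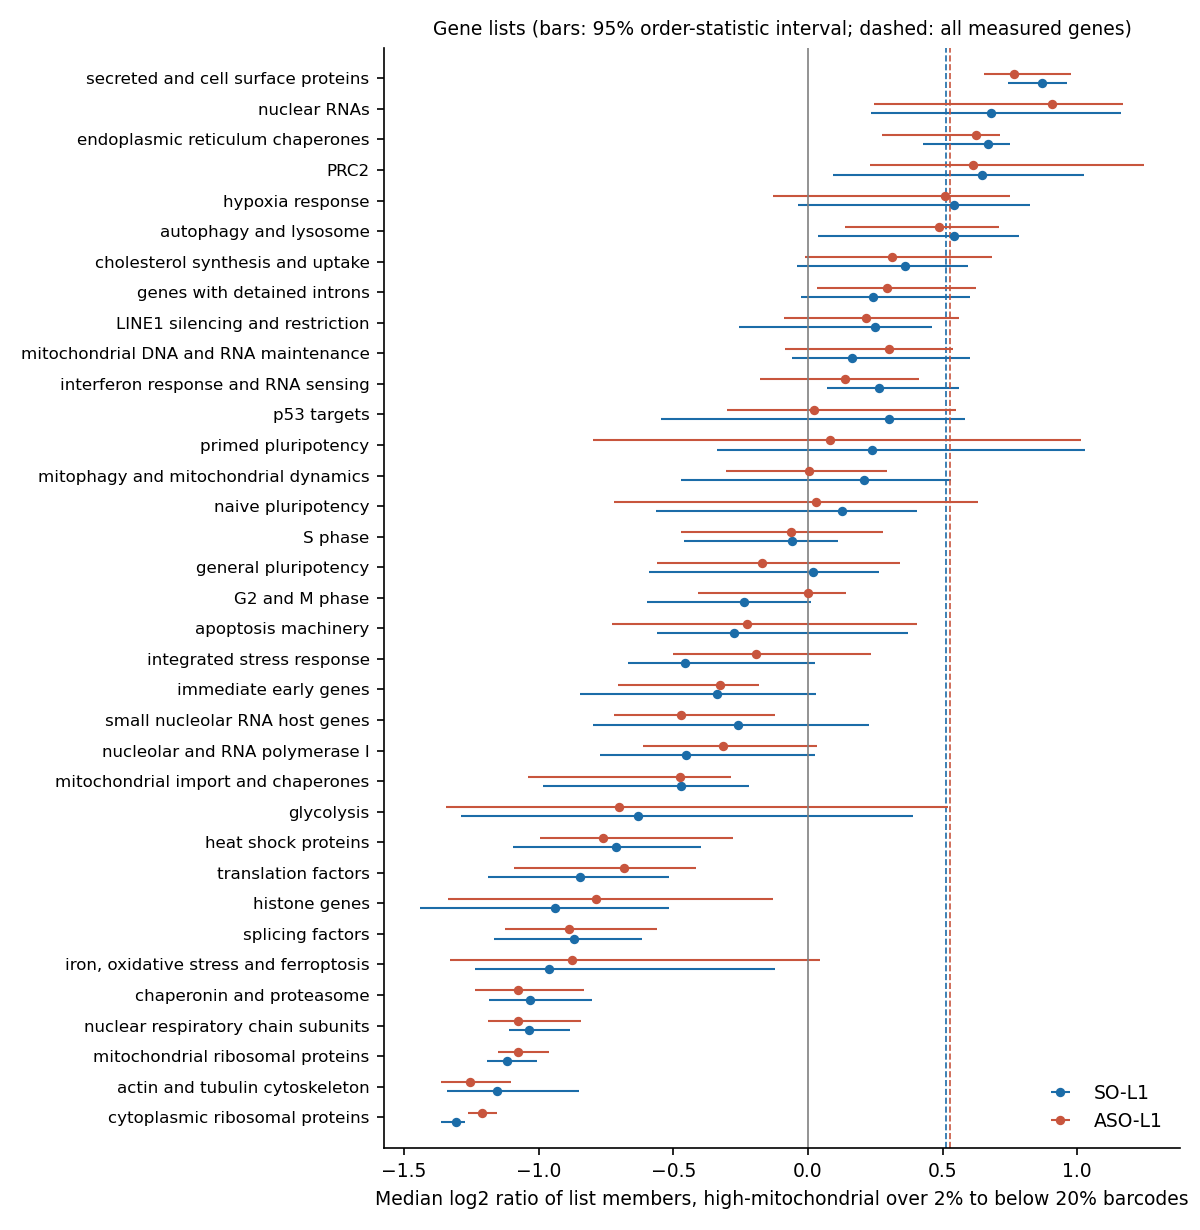
Median log2 ratio (high-mitochondrial over 2% to below 20% barcodes, x axis) of the measured genes of each list with at least 10 measured in both libraries, blue SO-L1 and red ASO-L1; bars are 95% order-statistic intervals over genes, dashed lines the medians of all measured genes (0.51 and 0.53). Cytoplasmic ribosomal proteins (-1.31 and -1.21) and the actin and tubulin cytoskeleton (-1.16 and -1.26) sit at the low end, and the intervals of secreted and cell surface proteins lie above the all-gene medians.

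Chaperones and translocation factors of the endoplasmic reticulum had medians of 0.67 (0.43 to 0.75) in SO-L1 and 0.63 (0.27 to 0.71) in ASO-L1, intervals that hold the all-gene medians of 0.51 and 0.53. In SO-L1 18 of 30 were higher and 2 lower, and in ASO-L1 16 and 2, where 46.3% and 46.8% of all measured genes were higher. HSP90B1 was at 778 against 471 CPM in SO-L1 and 546 against 328 in ASO-L1, and the calcium-binding chaperone CALR at 934 against 592 and 796 against 508. Their cytosolic relative HSP90AB1 went the other way, with ratios of 0.664 and 0.502. The lumenal HSP70 chaperone HSPA5 was higher at 1.97 and 1.88, and its cytosolic relative HSPA8 lower at 0.364 and 0.429. Subunits of 1 complex divided: the channel subunit SEC61A1 was higher at 1.92 and 1.88, while SEC61B and SEC61G, small subunits anchored by their tail ends, were the 2 lower genes of the list, at 0.398 and 0.409 in SO-L1 and 0.422 and 0.372 in ASO-L1.

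The list of nuclear RNAs had medians of 0.68 (0.24 to 1.16) in SO-L1 and 0.90 (0.24 to 1.17) in ASO-L1, with 10 of 19 and 11 of 18 higher and 1 lower in each. These intervals also hold the all-gene medians, and the counts stand beside 46.3% and 46.8% higher among all measured genes. SNHG14, a very long transcript over the imprinted region of chromosome 15, had 2421 CPM against 1022 in SO-L1 and 2042 against 777 in ASO-L1. FTX, a non-coding gene of the X inactivation centre, had ratios of 2.70 (2.64 to 2.76) and 3.22 (3.13 to 3.30). MALAT1, the abundant RNA of nuclear speckles, was at 3081 against 2142 CPM in SO-L1, a ratio of 1.44 (1.41 to 1.47) that did not reach the call, and at 5776 against 3278 in ASO-L1, a called 1.76 (1.74 to 1.79). NEAT1, the paraspeckle RNA, was at 2.24 and 2.25. In SO-L1 that call for NEAT1 turned around, to 0.899 and 0.824, against all barcodes below 20% and against reference barcodes weighted to the depth of the high-mitochondrial ones. LNCPRESS1, a short pluripotency-linked RNA, was the 1 lower gene of the list in both, at 0.327 and 0.425.

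The ratio moved with the genomic span of the gene, introns included. Among protein-coding genes under 5 kb, 548 of 862 (63.6%) were lower and 43 higher in SO-L1, with a median log2 ratio of -0.97, and 543 of 895 were lower in ASO-L1, with a median of -0.88. At 20 kb to below 50 kb the medians were 0.34 and 0.36. Among genes of 500 kb or more, 254 of 261 (97.3%) were higher and 0 lower in SO-L1, with a median of 1.26, and 242 of 248 (97.6%) were higher and 0 lower in ASO-L1, with a median of 1.55. Non-coding genes lay above protein-coding genes of the same span in each class, from -0.10 and -0.06 under 5 kb to 1.34 and 1.58 at 500 kb or more. Genes spanning 100 kb or more took 38.4% of non-mitochondrial UMIs against 19.2% in SO-L1 and 35.4% against 16.1% in ASO-L1. The labels do not say whether intronic reads were counted, and spliced and unspliced molecules cannot be told apart in these tables.

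**Figure D3:**
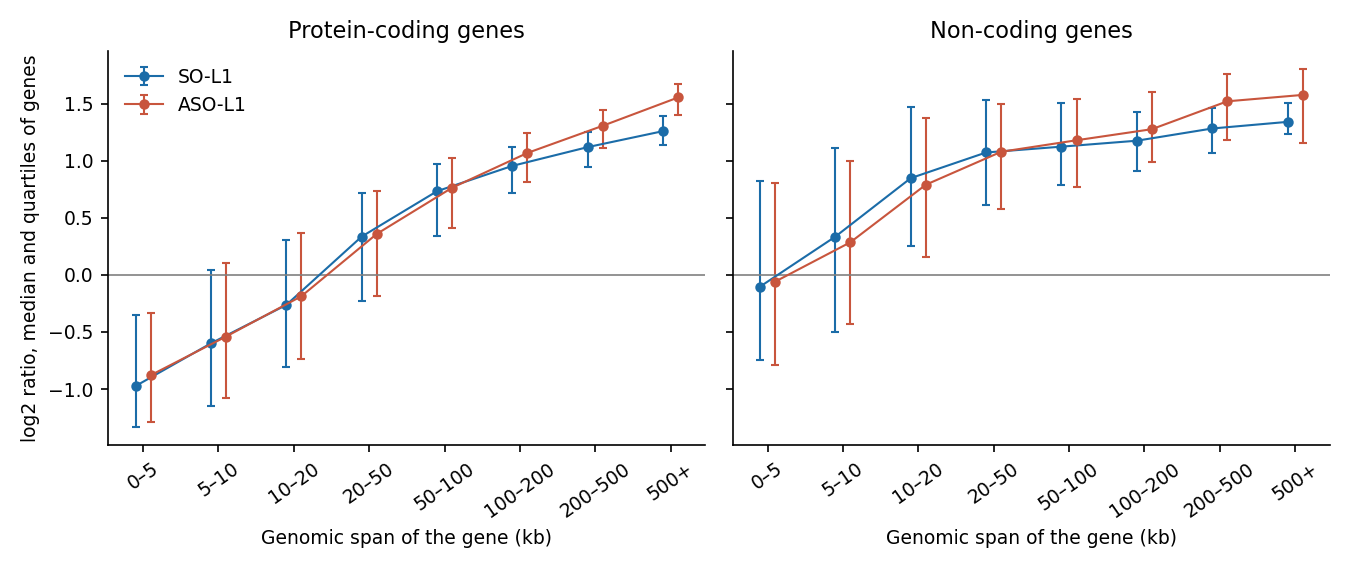
log2 ratio of high-mitochondrial over 2% to below 20% barcodes by genomic span in kb, for protein-coding (left) and non-coding (right) genes; points are medians over genes, bars quartiles, blue SO-L1 and red ASO-L1. Protein-coding medians climb from -0.97 and -0.88 under 5 kb to 1.26 and 1.55 at 500 kb or more.

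Several of the largest ratios after the mitochondrial copies belonged to genes of over 100 kb. GRIN2A, a glutamate receptor subunit gene on GRCh38 chromosome 16 (9753404 to 10182754), had 160 CPM against 32.9 in SO-L1 and 91.1 against 18.7 in ASO-L1, ratios of 4.85 (4.45 to 5.28) and 4.88 (4.38 to 5.43). ZNF385D, a zinc finger gene on chromosome 3 (21412222 to 22373321), had ratios of 4.47 and 5.21. The antisense genes DIAPH2-AS1, AQP4-AS1 and G2E3-AS1 had ratios of 4.85, 4.95 and 4.90 in SO-L1 and of 5.20, 5.23 and 4.98 in ASO-L1. Whether the counting used strand is not stated in the labels, so reads of these genes cannot be told apart from those of genes on the other strand. SLCO1C1, a shorter thyroid hormone transporter gene, had 41.7 CPM against 8.55 and 29.8 against 4.04.

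The lists also differed within broad classes of span. Spans were not matched inside a class, and whether span accounts for these differences was not tested. Under 20 kb alone, protein-coding medians ran from -0.97 and -0.88 below 5 kb to -0.26 and -0.19 at 10 kb to below 20 kb. Under 20 kb, where all protein-coding genes had medians of -0.52 (SO-L1) and -0.44 (ASO-L1), the 21 secreted and cell surface genes had 0.49 and 0.42, and the 19 endoplasmic reticulum genes 0.43 and 0.27. In the same class the 25 chaperonin and proteasome genes had -1.18 and -1.23, and the 55 nuclear respiratory chain genes -1.09 and -1.16. At 20 kb to below 50 kb, where all protein-coding genes had 0.34 and 0.36, the secreted and cell surface genes had 0.87 and 0.62 and the 10 ribosomal protein genes -1.22 and -1.09. At 50 kb or more, where all had 0.92 and 1.01, the secreted and cell surface genes had 1.05 and 1.11, close to the rest.

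Summed, general pluripotency genes took a share of the RNA close to that in the reference. Their medians were 0.02 (-0.59 to 0.26) in SO-L1 and -0.17 (-0.56 to 0.34) in ASO-L1, below the all-gene 0.51 and 0.53. Of 25 measured in SO-L1, 4 were higher and 8 lower, and of 26 in ASO-L1, 4 and 5. Over all measured genes 46.3% and 46.8% were higher and 17.1% and 16.5% lower. All 26 general pluripotency genes had UMIs in each library's high-mitochondrial barcodes, summing to 8757 CPM against 8496 in SO-L1 and 8716 against 7800 in ASO-L1. Barcodes with under 1000 genes and below 20% mitochondrial UMIs held a like share, 0.698% and 0.724% of non-mitochondrial UMIs against 0.876% and 0.872%, so these sums do not tell a barcode's own RNA from RNA free in the suspension. Within the list the direction differed by gene. POU5F1, the central pluripotency transcription factor, was lower at 438 against 1041 CPM in SO-L1 and 411 against 1020 in ASO-L1, ratios of 0.420 (0.400 to 0.441) and 0.403 (0.383 to 0.423). NANOG was lower at 0.572 and 0.477, and SOX2 was lower in SO-L1 at 0.655 and stood at 0.711, not called, in ASO-L1. JARID2, a PRC2 cofactor spanning chromosome 6 (15246296 to 15522040), was higher at 1880 against 924 CPM and 2262 against 918. GDF3, a secreted TGF-beta family ligand, was higher at 2.14 and 2.13, and LIN28B at 1.73 and 1.98, while its shorter relative LIN28A had 0.663 and 0.708. The DNA methyltransferase DNMT3B was at 1.32 and 1.27, below the call.

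The PRC2 list, the complex named in the series title, had medians of 0.64 (0.09 to 1.03) in SO-L1 and 0.61 (0.23 to 1.25) in ASO-L1, near those of all genes, with 7 of 12 measured higher and 1 lower in each library. These counts stand beside 46.3% (SO-L1) and 46.8% (ASO-L1) higher and 17.1% and 16.5% lower among all measured genes. With mitochondrial genes kept in the total the list's ASO-L1 median became -0.001. AEBP2, an accessory subunit, and the listed gene LCOR were higher, at 2.30 and 2.19 in SO-L1 and 2.37 and 2.53 in ASO-L1. The list entry PALI1 had no match. The catalytic subunit EZH2 stood at 1.19 (1.07 to 1.32), not called, and at a called 1.54 (1.38 to 1.70). PHF19 was the lower one, at 0.513 and 0.488. Genes of the 8C stage, when the human embryo switches its own genome on, summed to 117 CPM against 133 in SO-L1 and 551 against 414 in ASO-L1, with 25 and 19 of the 38 in the tables at 0 UMIs. Of the 2164 UMIs behind the ASO-L1 sum, ALPG gave 1154, with 31.1% of them from 1 barcode, and KHDC1L 268, with 66.8% from 1 barcode, so the higher sum there leans on single barcodes. ZSCAN4 had 0 UMIs in the SO-L1 high-mitochondrial barcodes, which allows up to 3 UMIs' worth, and 4 in ASO-L1.

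Markers of other cell types were few. Mesendoderm genes summed to 47.4 CPM against 67.7 in SO-L1 and 89.3 against 117 in ASO-L1, with TBXT and SOX17 at 0 in both. The trophectoderm and amnion list summed to 273 against 571 and 277 against 599, with KRT18 and KRT19, keratins that stem cells also express, at 173 and 66.7 CPM in SO-L1 and 173 and 50.4 in ASO-L1. The neural list was at 277 against 633 and 254 against 514, with LHX2 and SIX3 at 0 in both. Most of its UMIs came from the tubulin gene TUBB3 and from NES. They gave 659 and 246 of 1017 in SO-L1 and 541 and 369 of 997 in ASO-L1. TUBB3 was lower at 0.367 and 0.379. PAX6, an eye and brain transcription factor, had only 2 and 3 UMIs. The fibroblast and feeder list was at 419 against 482 and 405 against 457, with COL3A1, DCN and LUM at 0 in both. None of these 4 lists summed higher in the high-mitochondrial barcodes than in the reference. Single genes did not all follow the sums. Of 9 measured fibroblast and feeder genes, 4 were higher and 3 lower in SO-L1, and 5 and 3 in ASO-L1. The list's medians were 0.41 and 0.63, beside the all-gene 0.51 and 0.53. In mesendoderm KDR was higher at 1.91 and 2.10, with 2 of 5 measured genes lower in SO-L1 and 4 in ASO-L1. Of the neural genes, 1 of 6 measured was higher and 5 lower in SO-L1. In ASO-L1 2 of 5 were higher and 2 lower.

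Stress and death lists held genes called in both directions, except that 0 heat shock genes were higher in ASO-L1. Over all measured genes 46.3% (SO-L1) and 46.8% (ASO-L1) were higher and 17.1% and 16.5% lower. Beside that, the p53 and apoptosis lists had smaller shares higher and larger shares lower. The p53 target list had medians of 0.30 (-0.54 to 0.58) in SO-L1 and 0.02 (-0.30 to 0.55) in ASO-L1, with 8 of 29 and 6 of 32 higher and 7 and 8 lower. CDKN1A, the p53-induced cell cycle inhibitor, stood at 1.497 (1.03 to 2.11), not called, from 33 UMIs in SO-L1 and was lower at 0.561 (0.420 to 0.735) in ASO-L1. The apoptosis list had medians of -0.28 and -0.23, with 7 of 31 higher and 9 lower in SO-L1 and 6 and 12 in ASO-L1. CYCS, whose protein activates the apoptosome, was lower at 0.397 and 0.388, and the caspase gene CASP8 higher at 1.89 and 2.00. Emricasan, a caspase inhibitor, had been present for the first 24 hours in both libraries. Heat shock proteins had medians of -0.71 and -0.76. Of 21 measured in SO-L1, 12 were lower and 1 higher, and of 22 in ASO-L1, 12 and 0.

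The integrated stress response list, at medians of -0.46 (-0.67 to 0.02) and -0.19 (-0.50 to 0.23), also held genes called in both directions. In SO-L1 5 of 31 were higher and 12 lower, and in ASO-L1 7 and 10 of 33. That is a smaller share higher and a larger share lower than over all measured genes. There 46.3% (SO-L1) and 46.8% (ASO-L1) were higher and 17.1% and 16.5% lower. The amino acid transporter chains SLC7A11, SLC7A5 and SLC3A2 and the lipoprotein receptor VLDLR were higher in both libraries, at 1.90, 2.46, 1.84 and 1.86 in SO-L1 and 2.56, 2.22, 1.58 and 1.63 in ASO-L1. The glutathione-degrading enzyme CHAC1, the transcription factors ATF5 and CEBPB and the mTORC1 inhibitor DDIT4 were lower, at 0.373, 0.613, 0.308 and 0.320 in SO-L1 and 0.576, 0.489, 0.506 and 0.493 in ASO-L1. Of the 15 CHAC1 UMIs in SO-L1, 33.3% came from 1 barcode. These genes were picked out after their values were seen, apart from DDIT4, CEBPB and SLC3A2, which the naming rule gave. ATF4, the transcription factor at the centre of the response, was lower in SO-L1 at 0.656 and stood at 0.791, not called, in ASO-L1.

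The high-mitochondrial barcodes were not uniform, and their make-up did not run in 1 direction with the mitochondrial share. Ribosomal protein messenger RNAs took 20.7% of non-mitochondrial UMIs in SO-L1 barcodes at 5% to 10%, 12.6% at 20% to below 30%, 4.09% at 30% to below 50% and 6.99% at 50% or more. In ASO-L1 the same bands gave 22.01%, 11.8%, 6.41% and 10.9%. The turn at 30% to below 50% was shared by other groups: secreted and cell surface genes reached 2.21% and 2.20% there, against 1.62% and 1.47% at 50% or more. Genes spanning 100 kb or more reached 45.4% and 40.3% there, against 40.5% and 33.8% at 50% or more. HIST1H4C had 742, 292, 26.0 and 45.2 CPM over those 4 bands in SO-L1 and 1012, 233, 68.3 and 131 in ASO-L1, and APOE 1582, 2695, 4164 and 2824 in SO-L1 and 1974, 3577, 4561 and 2820 in ASO-L1. MTRNR2L12 climbed throughout, from 44.3 to 188, 358 and 1210 CPM in SO-L1 and from 33.8 to 173, 328 and 1156 in ASO-L1. Its UMIs went closely with the mitochondrial ones, so the bands of mitochondrial share largely fix this climb. General pluripotency genes took between 0.827% and 0.916% of non-mitochondrial UMIs in all 3 bands above 20% in both libraries.

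**Figure D4:**
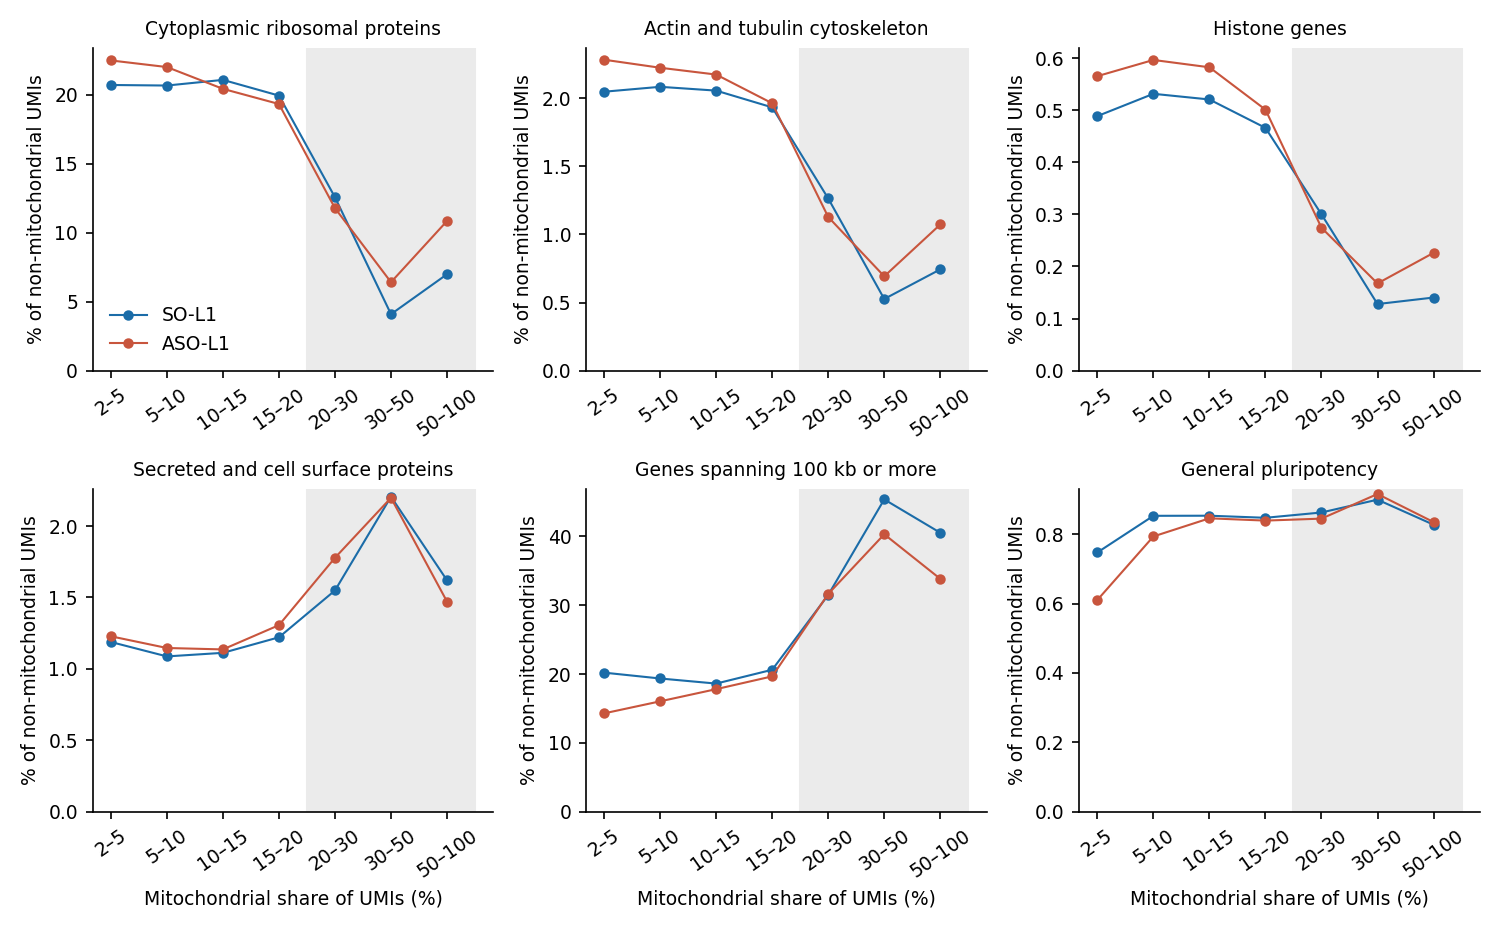
Share of non-mitochondrial UMIs (%, y axes from 0) taken by 6 groups of genes in bands of mitochondrial share (%, x axis), blue SO-L1 and red ASO-L1; each point is the sum over the barcodes of a band, and grey marks the high-mitochondrial barcodes. Ribosomal protein UMIs are lowest (4.09% and 6.41%) and those of secreted proteins (2.21% and 2.20%) and of long genes (45.4% and 40.3%) highest at 30% to below 50%.

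Barcode by barcode, most high-mitochondrial barcodes lay outside the range usual in the reference. Of 472 in SO-L1, 436 (92.4%) had a smaller share of ribosomal protein UMIs than the reference's 10th percentile of 17.8%, and of 530 in ASO-L1, 461 (87.0%) lay below its 17.7%. Below a share of 10%, a limit set after the distribution was seen, were 385 SO-L1 barcodes (81.6%) and 343 of ASO-L1 (64.7%), against 79 (1.68%) and 93 (1.42%) of the reference barcodes. Between 8% and below 12%, close to that limit, lay 54 and 97. The high-mitochondrial barcodes below 10% had a median of 45.3% (SO-L1) and 43.0% (ASO-L1) of UMIs from genes of 100 kb or more, and those at 10% or more had 22.9% and 21.4%, nearer the 18.7% and 15.9% of such reference barcodes. In ASO-L1 the 187 at 10% or more were shallow, with a median of 2560 non-mitochondrial UMIs against 7086 in the 343 below it. In SO-L1 the medians were 6386 for 87 and 6121 for 385. Reference barcodes below 10% also had large medians from genes of 100 kb or more, 41.9% (SO-L1) and 36.3% (ASO-L1). They held medians of 305 and 401 mitochondrial UMIs. Few ribosomal protein UMIs beside many from long genes were therefore not confined to high-mitochondrial barcodes.

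**Figure D5:**
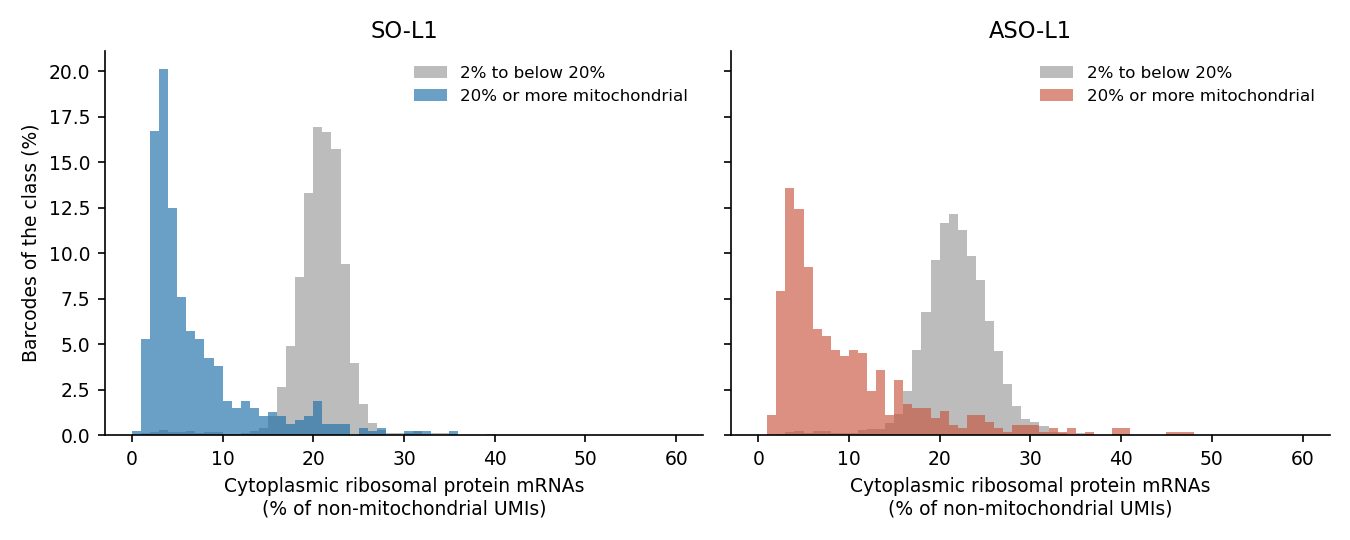
Distribution over barcodes of the share of cytoplasmic ribosomal protein UMIs (% of non-mitochondrial UMIs, x axis) in SO-L1 (left) and ASO-L1 (right), as % of each class (y axis); grey is 2% to below 20% and colour 20% or more mitochondrial UMIs. Of the coloured class, 92.4% (left) and 87.0% (right) lie below the 10th percentile of the grey one.

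Depth differed between the classes, so the comparison was also made among barcodes of like depth. Within the quartiles of the high-mitochondrial barcodes' own non-mitochondrial count, 2919 to 10000 UMIs in SO-L1, 236 high-mitochondrial barcodes had 4.54% ribosomal protein UMIs and 45.2% from genes of 100 kb or more. The 94 reference barcodes there had 16.98% and 28.5%. In ASO-L1, at 2695 to 9956 UMIs, 264 high-mitochondrial barcodes had 8.17% and 37.2%, and 188 reference barcodes 20.4% and 20.8%. Secreted and cell surface genes took 2.13% against 1.38% in SO-L1 and 2.10% against 1.22% in ASO-L1. These 3 groups thus kept their direction at like depth in both libraries.

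Between the libraries, the high-mitochondrial barcodes mostly differed the way the reference barcodes did. Of 14962 genes measured between the high-mitochondrial classes, 1177 (7.87%) were called higher in ASO-L1 and 1337 (8.94%) lower. Among the genes at least 2-fold higher in the ASO-L1 reference and measured in the high-mitochondrial barcodes, 276 of 353 (78.2%) were called higher there and 0 lower. Of those at least 2-fold lower, 382 of 534 (71.5%) were called lower and 2 higher. CER1, a secreted Nodal and BMP inhibitor, was 13.6-fold higher in ASO-L1 (6.38 to 34.7) from 7 and 102 UMIs, with 28.6% of the 7 from 1 barcode, and 13.4-fold higher in the reference. ANXA1, a phospholipid-binding protein gene, was 10.2-fold higher (5.50 to 20.97) from 11 and 120 UMIs, and 12.1-fold higher in the reference. Of these ANXA1 counts, 45.5% of the 11 and 25.8% of the 120 came from 1 barcode each. LRRTM3, a long synaptic adhesion gene, was 3.17-fold lower from 684 and 231 UMIs, and 2.84-fold lower in the reference.

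Single barcodes carried some of these counts. KHDC1L, an 8C-stage gene, had 1 UMI in the SO-L1 high-mitochondrial barcodes and 268 in ASO-L1, of which 66.8% came from 1 barcode, beside a 23.0-fold difference in the reference. ALPG, an alkaline phosphatase gene of naive cells, was 11.98-fold higher (9.66 to 15.02), with 31.1% of its 1154 UMIs from 1 barcode, and 7.73-fold higher in the reference. Within ASO-L1, ALPG had a ratio of 1.69 in the main comparison of high-mitochondrial with reference barcodes, but of 0.692 against all barcodes below 20% and of 0.813 against depth-weighted ones. CCNA1, a germline cyclin gene, was 10.4-fold higher (6.87 to 16.6), with 60.5% of its 268 UMIs, and 45.8% of its 24 in SO-L1, from 1 barcode. Small nucleolar RNA host genes had a median log2 difference of 0.94 between the libraries in the high-mitochondrial barcodes and 1.02 in the reference, with 14 of 18 called higher and 0 lower. Immediate early genes had 1.34 and 1.51, with 18 of 26 higher and 0 lower, and cholesterol synthesis genes -0.54 and -0.55, with 10 of 27 lower and 0 higher.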

How the data were processed

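The authors deposited unnormalized UMI counts of 2 libraries. The submitters' processing notes name Cell Ranger 7.1.0 and hg38; annotation release, cell calling, intron use and strand were not given in the labels or files used. Barcodes came from 10x 3' v3 libraries sequenced to over 65000 reads per cell, per the labels' protocols. The members (the high-mitochondrial barcodes), the 41 gene lists and the tests were chosen with earlier results of these data known.

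UMIs were summed over the barcodes of a class (non-mitochondrial sums 3672897 and 3929852 in the high-mitochondrial classes of SO-L1 and ASO-L1, 194608080 and 355890111 in the reference) and divided by the total without mitochondrial genes. Ratios carry an exact conditional binomial 95% interval, which treats UMIs as independent and leaves out the spread between cells and libraries. List medians carry order-statistic intervals. Positions, types and spans come from GENCODE 29 on GRCh38 by gene identifier (34616 of 36601 matched), and copies of mitochondrial genes from BLAST 2.17.0. Of 1480 list entries 58 were matched by identifier and 7 had no match.

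Named are the 12 genes higher and the 12 lower by the interval bound nearest to 1, without clone-style and LINC names, the 2 most changed and 2 most abundant of each list, a fixed set of stem cell and housekeeping genes, and genes called in opposite directions. Other genes named were chosen after their values were seen. No doublet caller was used. The ratio script was tested on simulated data with known changes. Scripts used Python 3.11.15, numpy 2.4.6, scipy 1.17.1 and pandas 2.3.3. The alternatives were other limits of mitochondrial share and detected genes, other totals, equal weights, thinning, depth-weighted reference barcodes, other filters on low counts and leaving out shared barcode sequences. Leaving out members of 50% or more and long genes were added after seeing the data.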

Additional observations from a re-analysis of the deposited data

Results flagged for a closer look

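4 genes were called in opposite directions in the libraries, high-mitochondrial over reference; each rests on 25 UMIs or fewer in SO-L1, and the difference between the libraries was not tested. HMOX1, which breaks down heme, had a ratio of 0.513 in SO-L1 (0.332 to 0.760, 25 UMIs) and 1.85 in ASO-L1 (1.60 to 2.12, 201 UMIs). In ASO-L1 66.2% of these HMOX1 UMIs came from 1 barcode, and the ratio turned to 0.760 without shared barcode sequences. NCAM1, a neural cell adhesion molecule, had 0.586 (0.379 to 0.868, 25 UMIs) and 1.92 (1.18 to 2.94, 21 UMIs). DOCK8, a guanine nucleotide exchange factor, had 0.423 (0.236 to 0.699, 15 UMIs) and 1.75 (1.08 to 2.69, 21 UMIs). SH2D3C, a signalling adaptor, had 0.389 (0.126 to 0.911, 5 UMIs) and 1.52 (1.10 to 2.05, 43 UMIs).

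Barcodes with under 1000 detected genes and 20% or more mitochondrial UMIs were outside the comparisons: 783 in SO-L1 and 908 in ASO-L1. They held a median of 2816 and 2801 mitochondrial UMIs and of 437 and 599 others. Their make-up was near that of the reference and not that of the high-mitochondrial barcodes with more genes. Ribosomal protein UMIs were 23.2% and 25.0% of non-mitochondrial ones, genes of 100 kb or more 16.4% and 13.3%, and secreted and cell surface genes 1.16% and 1.12%.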

How the results depend on the processing

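Over the alternatives 123 of 1200 list medians changed sign, 27 of them with mitochondrial genes kept in the total, and 4 of these had been at least 1.5-fold from 1. Of 4994 gene ratios 66 changed direction, 11 of them of called genes; these 4 and 11 are the ones called reversed below. With mitochondrial genes kept in the total the genes called higher were 2372 in SO-L1, 2634 in ASO-L1 and 1627 in both, and lower 4324, 4513 and 3799; the PRC2 median became -0.001 in ASO-L1 and SH2D3C 0.993. Without genes of 100 kb or more in the total, 1276, 1225 and 966 were lower. Thinning each barcode to 1500 UMIs left 3808, 3842 and 3131 higher, and a filter of 50 UMIs 3845, 3914 and 3367, where fewer UMIs or genes were tested. Reference barcodes weighted to the members' depth, with 12 and 24 barcodes in the smallest class, gave 3460 higher in both and reversed NEAT1 (0.824, SO-L1) and, in ASO-L1, ALPG (0.813), SH2D3C (0.793), NCAM1 (0.631) and HMOX1 (0.935). Against all barcodes below 20%, NEAT1 (0.899, SO-L1), ALPG (0.692) and HMOX1 (0.801) reversed, as did HMOX1 at 30% or more (0.729) and without shared sequences (0.760). With no filter the mesendoderm (0.93 and 0.08) and trophectoderm (0.89, SO-L1) medians reversed, few of whose genes are measured. Other causes were not tested.

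The share of high-mitochondrial barcodes was 5.72% in SO-L1 and 8.54% in ASO-L1 from 500 genes, 5.39% and 4.01% from 2000 genes, and 8.38% and 6.70%, 5.77% and 4.77%, and 4.91% and 3.97% at limits of 15%, 25% and 30%, so from 500 genes the order of the libraries turned. Leaving out members above the reference's 99th percentile of UMIs was not run, there being 0. No paired analysis was possible because each group has 1 library. Counting error limits genes of few UMIs, and no interval covers the spread between libraries.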

Other observations

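The groups not yet described lay between the extremes. Autophagy and lysosome genes had medians of 0.54 (0.04 to 0.78) in SO-L1 and 0.49 (0.14 to 0.71) in ASO-L1, near those of all measured genes, with 18 of 38 and 16 of 37 higher and 8 lower in each; GABARAP and GABARAPL2, small ubiquitin-like proteins of the autophagosome, were among the lower, at 0.333 and 0.307 in SO-L1 and 0.321 and 0.436 in ASO-L1. Cholesterol synthesis and uptake genes had medians of 0.36 and 0.31, with the regulators SREBF1 and SREBF2 higher at 2.26 and 1.87 in SO-L1 and 2.26 and 2.14 in ASO-L1. Iron and oxidative stress genes had -0.96 and -0.88, with 20 of 35 and 20 of 36 lower, among them both ferritin chains, FTH1 at 0.391 and 0.367 and FTL at 0.382 and 0.374. Among all measured genes 46.3% (SO-L1) and 46.8% (ASO-L1) were higher and 17.1% and 16.5% lower.

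Cell cycle genes had medians of -0.06 in both libraries for S phase and of -0.24 and 0.00 for G2 and M phase. These lay below the all-gene 0.51 and 0.53. In S phase 7 of 60 were higher and 18 lower in SO-L1, and 11 and 16 of 61 in ASO-L1. Over all measured genes 46.3% and 46.8% were higher and 17.1% and 16.5% lower. In S phase the long genes PRIM2 and POLA1, of the primase and polymerase alpha, were higher at 2.32 and 2.28 in SO-L1 and 2.51 and 2.68 in ASO-L1. MCM3, of the replicative helicase, was lower at 0.603 and 0.618. Among mitophagy and mitochondrial dynamics genes 7 were higher and 6 lower of 25 in SO-L1, and 5 and 5 in ASO-L1. That is a smaller share higher and a larger share lower than over all measured genes. FIS1, of mitochondrial fission with a short gene, was lower at 0.340 and 0.388.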
